A study of Mus musculus with 4 samples.

Results

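The genes described here are the 4 myogenic regulatory factor genes *Myod1*, *Myf5*, *Myf6* and *Myog*, and the paired-box genes *Pax3* and *Pax7* that act in muscle progenitors. They were taken by name, and their bins are the 50 kb bins that overlap the gene bodies in GENCODE vM21 on mm10, together with the bins within 1 Mb on each side. These are 6 of the 21679 protein-coding genes that have a replication timing value. They lie at 5 loci on 4 chromosomes, because *Myf5* and *Myf6* are neighbors, and the windows hold 208 of the 51153 bins on the 19 autosomes and X, with 0 bins missing.

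Timing was measured by population-based Repli-seq in diploid F121-9 mESCs, a hybrid cas/129 line kept in N2B27+2i+LIF, with 2 libraries of BrdU-labeled DNA from the early S fraction and 2 from the late S fraction. BrdU is a nucleotide analog that marks newly made DNA, and the fractions were sorted by DNA content. No treatment, knockout or differentiated cell was compared, all 4 libraries come from this hybrid line, and no RNA was measured, so the identity of the cells could not be checked against marker genes. Each 50 kb bin has a single deposited value, replication timing (RT), the log2 ratio of early to late RPM (reads scaled to the size of each library), so that RT above 0 means more early than late signal and RT below 0 the opposite. This value carries no replicate label and is taken here to combine the replicates. No error between replicates can therefore be given, the read depth behind a bin is unknown, and every comparison below is a description with no test. The only error available was the bin-to-bin noise inside stretches of nearly constant RT, an SD of 0.16 log2 per bin, which says nothing of differences between cultures.

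Skeletal muscle of the trunk and limbs forms from somites, in which *Pax3* and *Pax7* mark the progenitors. *Myf5*, *Myf6* (also known as MRF4) and *Myod1* encode basic helix-loop-helix factors that commit cells to the muscle lineage, and *Myog* encodes the related factor that drives their differentiation into myotubes. These factors bind E-boxes, with the letters CANNTG, as dimers with E proteins. mESCs are pluripotent cells in which the muscle program is not in use. In mammalian cells, early replication generally goes with gene-rich, GC-rich and open chromatin, and large domains change their timing during differentiation.

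The start sites of the latest and the earliest of these genes differ in their own base content, which is why 3 promoters are shown here, each with 250 bases before and 50 after the start, from RefSeq on GRCm38.p6 (the assembly of mm10), read 5′ to 3′ on the strand of the gene. The capitals mark CpG dinucleotides. The promoter table used here has entries for *Myf5* (chr10:107486085-107486384, minus strand), *Myog* (chr1:134289754-134290053, plus strand) and *Pax7* (chr4:139832919-139833218, minus strand). *Myod1*, *Myf6* and *Pax3* are not in it.
*Myf5*: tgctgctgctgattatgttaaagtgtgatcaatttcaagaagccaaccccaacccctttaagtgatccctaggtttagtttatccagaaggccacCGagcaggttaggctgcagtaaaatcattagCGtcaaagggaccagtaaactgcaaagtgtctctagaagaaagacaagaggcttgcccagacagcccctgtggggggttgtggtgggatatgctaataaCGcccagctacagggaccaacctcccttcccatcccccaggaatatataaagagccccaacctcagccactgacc
*Myog*: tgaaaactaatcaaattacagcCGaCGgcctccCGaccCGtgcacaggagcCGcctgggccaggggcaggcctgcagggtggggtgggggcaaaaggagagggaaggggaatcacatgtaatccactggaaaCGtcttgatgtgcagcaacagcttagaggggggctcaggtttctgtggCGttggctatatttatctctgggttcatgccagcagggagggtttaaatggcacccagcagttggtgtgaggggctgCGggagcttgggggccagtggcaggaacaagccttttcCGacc
*Pax7*: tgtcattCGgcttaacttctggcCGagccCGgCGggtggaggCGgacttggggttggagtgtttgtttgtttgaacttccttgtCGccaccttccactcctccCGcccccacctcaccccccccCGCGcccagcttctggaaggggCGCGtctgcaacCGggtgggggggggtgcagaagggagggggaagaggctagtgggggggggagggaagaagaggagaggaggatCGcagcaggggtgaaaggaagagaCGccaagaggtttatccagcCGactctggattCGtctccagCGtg

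The *Myf5* promoter, at the latest of these loci, had 3 CpG dinucleotides and a GC content of 49.7%, at percentile 39.3 of the 32851 promoters of this length. The *Myog* promoter, at the earliest, had 9 CpG and 58.3% GC (percentile 67.1), and that of *Pax7*, in an early bin too, had 17 CpG and 63.7% GC (percentile 79.7). The median promoter had 7 CpG and 52.7% GC. A search for CANNTG, which reads the same on both strands, found 2 matches in the *Myog* promoter, CACATG and CAGTTG, and 0 in those of *Myf5* and *Pax7*. At least 1 match is present in 72.3% of all promoters, so a match or its lack is common and is only a description of the letters.

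The 6 genes covered most of the range of RT in these cells. *Myog* replicated earliest, with RT 2.88, followed by *Pax7* at 2.46, *Myod1* at 0.21, *Pax3* at -0.53, and *Myf5* and *Myf6* at -3.73. Thus 3 of the 6 genes were early (mean RT above 0) and 3 late, where 72.5% of all protein-coding genes and 40.9% of all bins were early. *Myod1* was counted as early although its RT was within 2 noise SDs of 0 (SD 0.16 per bin). The median of the 6 was -0.16, and that of all protein-coding genes 2.23. With 6 genes at 5 loci, of which *Myf5* and *Myf6* share their bin, these shares are given only as counts.

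**Figure D1:**
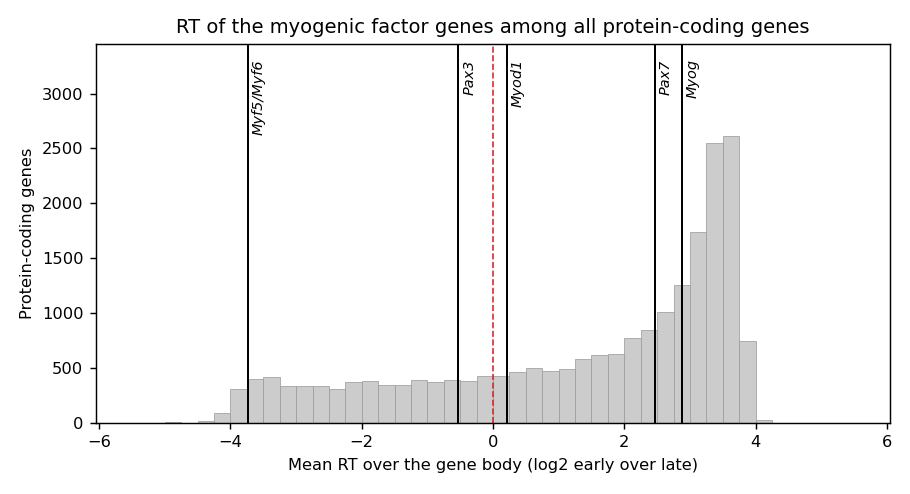
Number of protein-coding genes (vertical axis) by mean RT over the gene body (log2, horizontal axis, in steps of 0.25), with black lines at the myogenic factor genes and a dashed red line at RT 0. *Myog* (2.88) and *Pax7* (2.46) lie on the rise to the early maximum, *Myod1* (0.21) and *Pax3* (-0.53) between RT -1 and 1, and *Myf5*/*Myf6* (-3.73) near the late end.

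Ranked among all protein-coding genes, *Myog* stood at percentile 61.6, *Pax7* at 53.6, *Myod1* at 29.1, *Pax3* at 23.6, and *Myf5* and *Myf6* at 2.03. Among bins of the genome, in which late DNA is more frequent than among genes, the percentiles were 86.6, 81.9, 61.1, 54.4 and 10.4 in the same order. Neighbors in this order were compared with the noise SD of their difference. *Myog* exceeded *Pax7* by 0.41 (noise SD 0.18), *Pax7* exceeded *Myod1* by 2.26 (0.18), *Myod1* exceeded *Pax3* by 0.74 (0.19), and *Pax3* exceeded *Myf5* by 3.20 (0.19). All 4 differences of gene means were above 2 noise SDs, and *Myf5* and *Myf6* cannot be told apart because they share a bin. In the start site bins alone, *Pax7* had RT 2.44 and *Pax3* -0.22, with a noise SD of 0.22 for a difference between single bins. There, *Myog* and *Pax7*, and *Myod1* and *Pax3*, differed by slightly less than 2 noise SDs. The noise SD comes from stretches of nearly constant RT, while RT sloped at *Myog* and *Pax3*. Relative to the median RT of its own chromosome, *Pax3* turned to 0.93 and passed *Myod1* at 0.66, so the order of these 2 genes and the sign of *Pax3* depended on that reference. *Myod1* and *Pax3* were the 2 of the 6 with RT between -1 and 1, a range that held 15.8% of all protein-coding genes.

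*Myf5* (ENSMUSG00000000435.1) and *Myf6* (ENSMUSG00000035923.4) lie in tandem on the minus strand of chromosome 10, from 107482908 to 107486134 and from 107492853 to 107494737, with 6.72 kb between them. Both fall whole in the bin from 107450001 to 107500000, whose RT was -3.73. The genes lay in a late constant timing region, a plateau of 850 kb from 106750001 to 107600000 in which RT stayed between -4.20 and -3.66, with a mean of -3.85. A constant timing region is here a run of at least 10 bins whose slope over 5 bins is at or under 2.5 log2 per Mb. Of the 6 genes, *Myf5*, *Myf6* and *Pax7* lay in such regions, compared with 16.0% of all protein-coding genes. With a slope limit of 1.5 log2 per Mb 0 of the 6 did, and with a running median over 5 bins *Myf5* and *Myf6* did. The slope at *Myf5* and *Myf6*, 0.45 log2 per Mb, was the smallest of the 6 in size, beside a mean of -1.47 at *Pax7*. No noise was computed for slopes, so this order is only a description.

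The late DNA around *Myf5* and *Myf6* reached much farther to one side than to the other. All bins from 96750001 to 108050000 had RT below 0, a run of 11300 kb with 46 protein-coding genes, and the genes lay 550 kb from its higher end. Of the 41 bins of the window, 9 were early, beside 40.9% of all bins. The exact binomial 95% interval of this share of 22.0% was 10.6% to 37.6%, which reflects only how many bins were counted. Here and at the other loci this interval treats neighboring bins as independent, which they are not, so it is too narrow. The 20 bins on the lower side all stayed between -4.23 and -3.66, and those on the higher side went from -3.89 to 2.83. A timing transition, here the stretch between a bin at RT -1 or below and a bin at RT 1 or above, ran from 107900001 to 108150000 and crossed RT 0 at 108028854, 543 kb from *Myf5*. That point lies between *Otogl* and *Ppp1r12a*.

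The nearest genes on both sides of *Myf5* and *Myf6* were late as well. *Lin7a*, which encodes a scaffold protein of cell junctions, is 61.4 kb away on the lower side and had RT -3.92, the lowest of the 8 protein-coding genes in the window. *Ptprq*, a receptor-type phosphatase gene of the inner ear, is 22.3 kb away on the higher side, extends past the end of the plateau and had RT -3.47. The highest was *Pawr*, an apoptosis regulator gene beyond the transition, with RT 2.82. In all, 6 of the 8 were late and 2 early, where 72.5% of all protein-coding genes were early.

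*Myod1* (ENSMUSG00000009471.4) is on the plus strand of chromosome 7 from 46376474 to 46379099, in the bin from 46350001 to 46400000, with RT 0.21. Unlike *Myf5*, it lay near the floor of a valley between early domains. RT reached 3.90 at 650 kb on the lower side and 3.33 at 500 kb on the higher side, and the lowest bin of the valley, directly next to that of *Myod1*, had RT 0.02. RT stayed below 2 for 550 kb and below 1 for 400 kb, from 46150001 to 46550000. It did not fall below 0 anywhere in that stretch, but the lowest bin and that of *Myod1* were within 2 noise SDs of 0 (SD 0.16 per bin).

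The depth of such a valley was measured as the lower of the highest RT values on each side within 1 Mb, minus the RT of the gene. This measure was added after the profiles had been seen. At *Myod1* it was 3.12 log2, at percentile 94.8 of the 20787 protein-coding genes with enough bins on both sides, for which the median was 0.18. It was 1.34 at *Pax3* (percentile 82.4), 1.29 at *Pax7* (81.8), 0.65 at *Myog* (71.5) and 0.07 at *Myf5* and *Myf6* (42.1). *Myod1* was therefore the gene of the 6 with the deepest valley around it.

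The surroundings of *Myod1* were rich in genes. The window held 71 gene starts, or 34.6 per Mb. Of the other 70 protein-coding genes in it 67 were early, beside 72.5% of all protein-coding genes. The genes that overlap the 400 kb below RT 1 were *Abcc8* (0.79), a subunit gene of a potassium channel, *Ush1c* (0.49) and *Otog* (0.20), genes of the inner ear, *Kcnc1* (0.28), another potassium channel gene, and *Sergef* (0.97). They were picked here after their values were seen and by the RT of that stretch, so that low values follow from the choice, and *Otog* and *Kcnc1* are also the nearest genes on each side of *Myod1*. *Dbp*, a circadian transcription factor gene 666 kb away on the lower side, was among the genes of the bin with the highest RT in the window, 3.90, and *Mrgpra1*, a receptor gene of sensory neurons, had the lowest RT of the genes, -2.80. *Mrgpra1* lies past a transition from early to late whose center, 47165104, is 786 kb from *Myod1*. Of the 41 bins, 36 were early (87.8%, exact 95% interval 73.8% to 95.9%), beside 40.9% of all bins. As neighboring bins are not independent, the interval is no test against that share.

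*Myog* (ENSMUSG00000026459.5) is on the plus strand of chromosome 1 from 134289989 to 134292548, in the bin from 134250001 to 134300000, with RT 2.88. All 41 bins of its window were early (exact 95% interval 91.4% to 100%), beside 40.9% of all bins. Their RT ranged from 1.83 to 3.71 with a median of 3.29. The gene sat on the shoulder of a shallow dip. RT was lowest, at 1.83, in the bin from 133950001 to 134000000 on the lower side, and it rose by 4.48 log2 per Mb at *Myog* itself. *Ppfia4*, 4.24 kb away on the higher side, had RT 3.15, and *Adora1*, an adenosine receptor gene 54.6 kb away on the lower side, had RT 2.67. All 42 other protein-coding genes of the window were early, beside 72.5% of all protein-coding genes. They went from 2.02 at *Fmod*, a gene of the collagen matrix, to 3.71 at *Ptpn7*, a phosphatase gene of blood cells. The early run that holds *Myog* reached from 130850001 to 137250000, which is 6400 kb, and the nearest transition was 2941 kb away.

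*Pax3* and *Pax7* are closely related paralogs of similar length, 95.9 and 96.5 kb, but their timing differed by more than the noise. *Pax3* (ENSMUSG00000004872.15) spans 78101267 to 78197134 on the minus strand of chromosome 1 and overlaps 2 bins. RT was -0.22 in the bin with its start site and -0.84 in the bin with its end, so that replication was later toward the end of the gene. This difference within the gene is part of a longer slope of 8.84 log2 per Mb at its steepest bin, which was at percentile 82.2 of the steepest slopes of all protein-coding genes.

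*Pax3* was the only member with a bin inside a timing transition, as were 14.4% of all protein-coding genes. The transition ran from late to early along the assembly over 400 kb, from 78050001 to 78450000, and its crossings of RT 0, with 3 bins between -0.10 and 0.15, were centered on 78258709, 61.6 kb past the start site and short of *Sgpp2*, the nearest gene on that side. A second transition, from early to late, ran from 78700001 to 78950000. *Pax3* lay in a run of late bins of 600 kb, from 77600001 to 78200000, which overlapped 1 protein-coding gene, *Pax3* itself. Moving away from the gene, RT on the lower side fell to -2.21 and then rose to 0.81, and on the higher side it rose to 2.60 at 450 kb before it fell to -3.38.

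The other genes around *Pax3* were earlier than it was. In the window 23 of 42 bins were late and 19 early (45.2%, beside 40.9% of all bins). All 8 other protein-coding genes were early, beside 72.5% of all protein-coding genes. They went from 0.21 at *Kcne4*, a potassium channel subunit gene, to 2.32 at *Utp14b*, a gene of ribosome assembly. The RT of *Kcne4* was within 2 noise SDs of 0 (SD 0.16 per bin). The nearest on each side were *Epha4*, an ephrin receptor gene 586 kb away with RT 0.41, and *Sgpp2*, an enzyme gene of sphingolipid metabolism 113 kb away with RT 0.71. Of the 9 gene starts in the window, 8 were in early bins and the remaining 1 was that of *Pax3*.

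*Pax7* (ENSMUSG00000028736.13) spans 139737062 to 139833528 on the minus strand of chromosome 4 and overlaps 3 bins. Their RT was 2.44 at the start site, 2.56 in the middle and 2.40 at the end, which is flat within the noise. These bins began a constant timing region of 650 kb, from 139700001 to 140350000, with a mean RT of 2.46. That level was lower than the early DNA on both sides, where RT reached 3.76 at 500 kb and 3.75 at 900 kb. All 43 bins of the window were early (exact 95% interval 91.8% to 100%), beside 40.9% of all bins, and went from 2.26 to 3.76. The early run around *Pax7* spanned 10900 kb, from 131600001 to 142500000, with 209 protein-coding genes.

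The 31 other protein-coding genes around *Pax7* were all early, beside 72.5% of all protein-coding genes, and all had higher RT than *Pax7*. The lowest was *Igsf21*, an immunoglobulin-domain gene on the same plateau, with RT 2.48, which differs from that of *Pax7* by less than the noise, and the highest was *Rcc2*, a gene of mitotic chromosome assembly, with RT 3.75, level with *Padi6* in the same bin. The nearest were *Tas1r2*, a taste receptor gene, with RT 2.76, and *Klhdc7a*, with RT 2.62, the latter again within the noise. The nearest transition was 2681 kb away.

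**Figure D2:**
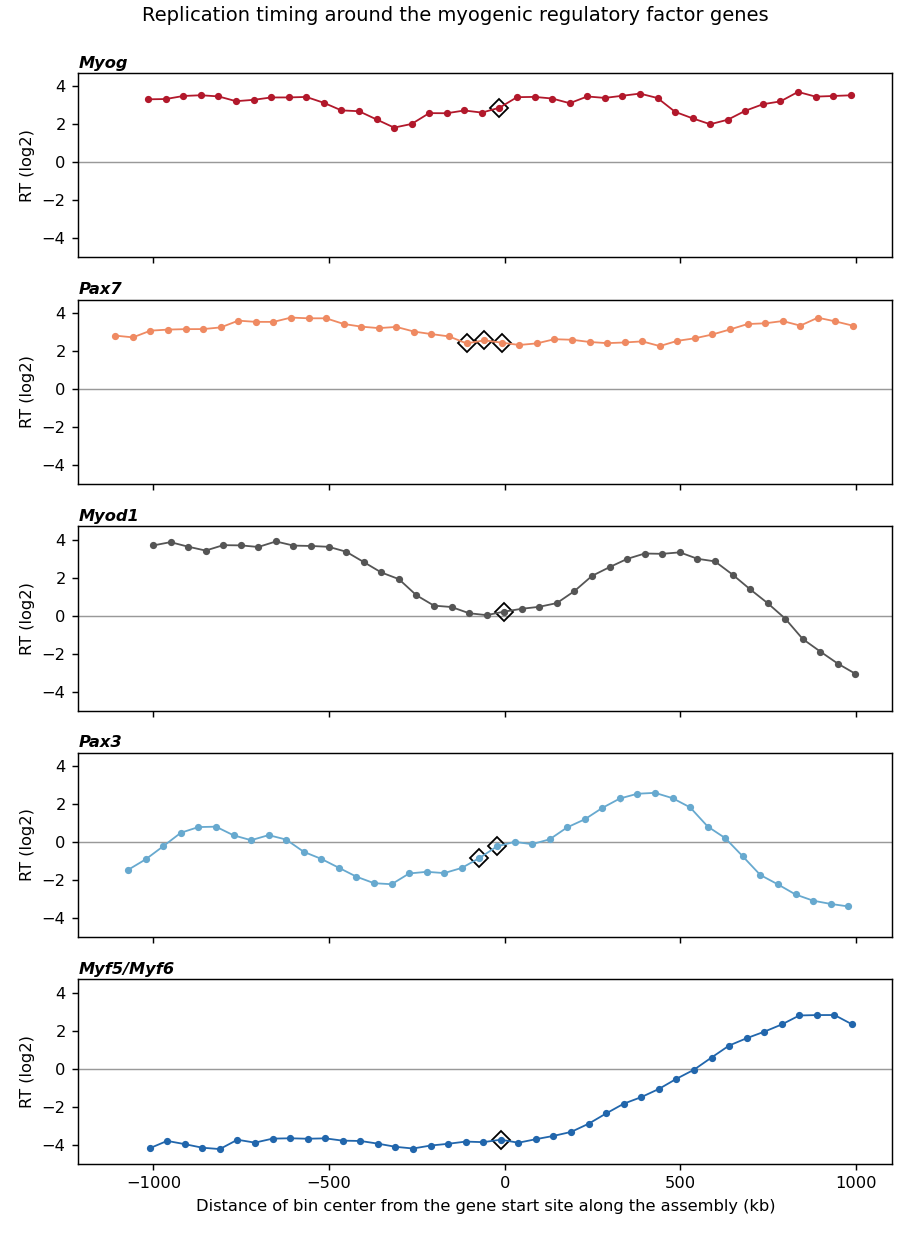
RT (log2, vertical axis) of each 50 kb bin by the distance of its center from the start site along the assembly (kb, horizontal axis), with 1 panel for each locus and distances from the *Myf5* start in the last. Points are bins, gray bars of ± 0.16 log2, mostly hidden by the points, are the bin-to-bin noise SD, and open diamonds mark the bins of the genes. *Myog* and *Pax7* stay above RT 1.83 and 2.26 throughout, *Myod1* sits in a valley, *Pax3* on a slope near RT 0, and *Myf5*/*Myf6* on a late plateau below -3.6 that ends in a transition.

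GC content and gene density were not used to choose the genes, and the loci differed in both. Mean GC content was 50.8% ± 1.76 (SD over 43 bins) around *Pax7*, at percentile 99.2 of the windows of all protein-coding genes, 48.0% ± 3.50 around *Myod1* (88.2), 47.1% ± 2.92 around *Myog* (80.4), 41.7% ± 1.63 around *Pax3* (28.0) and 38.7% ± 2.28 around *Myf5* and *Myf6* (5.54). The median window had 43.9%. Gene starts per Mb were 34.6 around *Myod1*, 20 around *Myog*, 14.9 around *Pax7*, 4.39 around *Myf5* and *Myf6* and 4.29 around *Pax3*, with a median of 15.2 over all windows. Masked repeats, the lower-case letters of the assembly, took up 23.3% of the sequence around *Pax7*, at percentile 3.46 of the windows of genes, 26.8% around *Myog*, 28.1% around *Myod1*, 30.1% around *Pax3* and 31.5% around *Myf5* and *Myf6* (percentile 53.6). The loci with the most GC and those with the most genes are therefore not in the same order as those with the highest RT: *Pax7* had more GC and *Myod1* more genes than *Myog*, the earliest of the 6.

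Within a window, RT and GC content went together to different degrees. Spearman's rho across bins was 0.75 around *Pax3* (42 bins), 0.57 around *Myf5* and *Myf6* (41), 0.42 around *Myod1* (41), 0.17 around *Myog* (41) and 0.02 around *Pax7* (43). Neighboring bins share both timing and base composition, so they are not independent and no p is given.

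The bin of *Myod1* had a high GC content for its RT. It had 49.7% GC, at percentile 95.7 of all bins. Of the 1947 bins whose GC content was within 1 percentage point of it, 95.7% were early, with a median RT of 3.11, and *Myod1* stood at percentile 5.24 of their RT. *Myf5* and *Myf6*, with 39.3% GC, stood at percentile 14.8 of the 10308 bins with similar GC, whose median RT was -2.50. The start site bin of *Pax3*, with 43.9% GC, stood at percentile 31.3, the 3 bins of *Pax7* between 20.5 and 27.2, and the bin of *Myog*, with 47.6% GC, at 58.9. *Myog* alone was thus above the median of bins with similar GC at its start site. This comparison was added after the values had been seen.

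**Figure D3:**
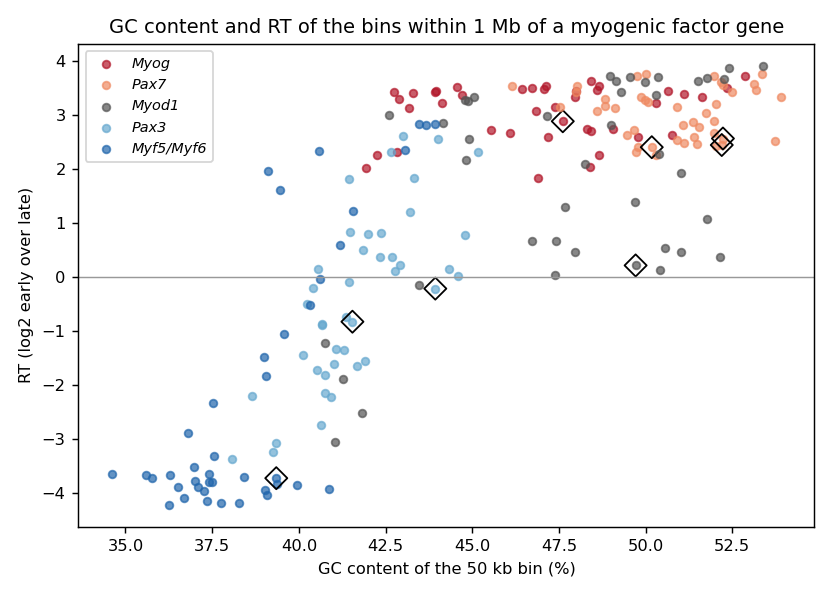
RT (log2, vertical axis) against GC content (%, horizontal axis) of the 208 bins within 1 Mb of a myogenic factor gene, colored by locus, with open diamonds at the bins of the genes. The bin of *Myod1* (49.7% GC, RT 0.21) lies among the lowest of the GC-rich bins, and the *Myf5*/*Myf6* bin (39.3% GC, RT -3.73) among late bins of low GC.

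Genes that act with the myogenic factors were read from lists. Of 16 upstream regulators of the muscle lineage, 10 were early, with a median RT of 2.51. The earliest were *Lbx1* (3.53), a homeobox gene of migrating limb muscle precursors, and *Tbx6* (3.46), a T-box gene of paraxial mesoderm. The latest were *Meox2* (-2.96), a homeobox gene of somites, and *Tcf21* (-2.11), which encodes a helix-loop-helix factor of head muscle precursors. Over all protein-coding genes 72.5% were early with a median of 2.23, so this list had a smaller early share and a similar median.

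Of 13 partners and inhibitors of the myogenic factors, 9 (69.2%) were early, a share near the 72.5% of all protein-coding genes, with a median of 1.87. *Id1* (3.79), whose product binds E proteins but not DNA, and *Tcf3* (3.79), which encodes such an E protein, were the earliest. *Twist1* (-3.53), a helix-loop-helix inhibitor gene, and *Mef2c* (-2.56), which encodes a MADS-box cofactor of the myogenic factors, were the latest. The RT of *Twist1* was closest among the named list genes to that of *Myf5* and *Myf6*.

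Of 31 genes of the differentiated muscle fiber, 25 (80.6%) were early, beside 72.5% of all protein-coding genes. The median of the 31 was 2.80 beside 2.23. Some of these genes are neighbors, such as *Myh1* and *Myh4*, which share a bin on chromosome 11, so they are not separate loci. Of the 31, 9 had RT between -1 and 1, so the count depends on the cut. *Tnnc2* (3.94), the fast-fiber troponin C gene, and *Ckm* (3.73), the muscle creatine kinase gene, were the earliest, and *Tnnc2* stood at percentile 99.7 of all protein-coding genes. *Dmd* (-2.17), the dystrophin gene on X, and *Actc1* (-0.66), the cardiac actin gene also used in embryonic muscle, were the latest. In this list 1 gene had RT below -1, while of the 6 myogenic factor genes *Myf5* and *Myf6* did.

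Among the 7 other *Pax* genes, 4 (57.1%) were early, beside 72.5% of all protein-coding genes, and the median of the 7 was 1.49. *Pax2*, of kidney and eye, had RT 3.12, *Pax5*, of B cells, 1.60, *Pax6*, of the eye, 1.56, and *Pax4*, of pancreatic islets, 1.49. The late ones were *Pax1* (-0.41), *Pax8* (-0.50), of the thyroid, and *Pax9* (-1.93). *Pax7* was therefore second to *Pax2* in the family, and *Pax3* stood next to *Pax8*, which differed from it by less than the noise of 1 bin.

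Regulators of other lineages are given for scale. All 8 pluripotency regulators, which are in use in mESCs, were early, beside 72.5% of all protein-coding genes. They went from *Zfp42* (2.66), *Klf4* (2.96), *Nanog* (3.17), *Tbx3* (3.32), *Sox2* (3.35), *Esrrb* (3.37) and *Tfcp2l1* (3.42) to *Pou5f1* (3.51). *Myog* (2.88) lay within their range, and the other myogenic factor genes below it, although *Pax7* (2.46) differed from *Zfp42* by less than 2 noise SDs. Of 8 mesoderm and endoderm regulators 5 (62.5%) were early, a share not far from the 72.5% of all protein-coding genes. These were *Mesp1* (3.52), *Mixl1* (3.21), *Eomes* (2.35), *Gata4* (2.32) and *T* (1.62). *Sox17* (-0.36), *Gata6* (-0.49) and *Foxa2* (-0.61) were late and close to *Pax3*. Among neural regulators *Dlx2* (3.29), *Neurog2* (1.61), *Sox1* (1.53), *Nkx2-2* (1.47), *Neurog1* (1.42) and *Olig2* (0.56) were early, while *Neurod1* (-0.90) was late. *Myf5* and *Myf6* had lower RT than every gene of the 7 lists, although *Twist1* differed from them by less than 2 noise SDs.

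**Figure D4:**
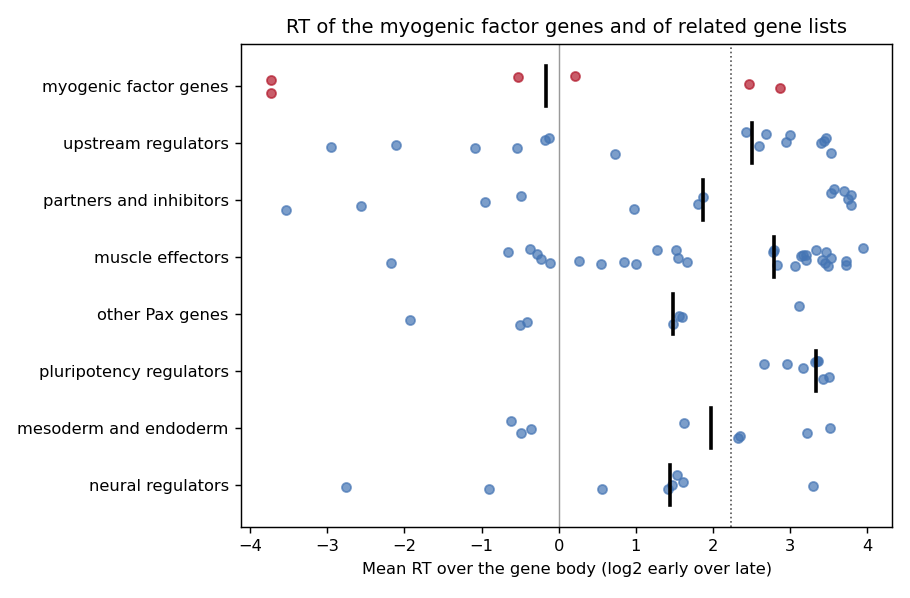
Mean RT over the gene body (log2, horizontal axis) of the myogenic factor genes (red) and of the genes of each related list (blue), with 1 point per gene, spread vertically only for legibility. Black bars are the medians of the lists (-0.16 for the 6 genes, 3.34 for pluripotency regulators), the gray line is RT 0 and the dotted line the median of all protein-coding genes, 2.23.

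Profiles like those of the 6 genes were sought elsewhere, by the root mean square difference of RT over the 41 bins within 1 Mb of each start site, read in the direction of transcription, in this 1 profile. The closest to *Pax7* were *Rnf43* and *Nf1* (0.33 and 0.34 log2), and the closest to *Myog* were *Pms2* and *Aldh6a1* (0.37 and 0.39). For *Myf5* and *Myf6* they were *4933405O20Rik* and *H2al1n* (0.48 and 0.50), for *Myod1* *Gm17720* and *H2-M11* (0.63 and 0.68), and for *Pax3* *Tmed3* and *Slc30a8* (0.80 and 0.87). A close profile did not always mean similar RT at the gene. Mean RT was 0.38 at *Gm17720* but -1.54 at *H2-M11*, beside 0.21 at *Myod1*. It was -2.18 at *Tmed3* and -1.73 at *Slc30a8*, beside -0.53 at *Pax3*. Only genes over 5 Mb from the member were compared. The number of these within 0.5 log2 was 81 for *Pax7*, 40 for *Myog*, 1 for *Myf5*, and 0 for *Myod1* and *Pax3*. Thus no gene that far away came that close to the valley of *Myod1* or the slope of *Pax3*. The count for *Myod1* leaves out *Kcnc1*, which starts in the same bin on the same strand and so shares its profile. Whether the fixed cut favors windows with a small range of RT was not tested. The named genes depended on the measure. With Pearson's correlation 3 of these 10 genes were named again, and with 500 kb on each side 1 was.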

How the data were processed

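Population-based Repli-seq of diploid F121-9 mESCs was used, with 2 early S and 2 late S libraries; the labels do not say that they came from separate cultures. The authors scaled reads to library size and deposited a log2 value of early against late signal for each 50 kb bin. It carries no replicate label and is taken here to combine the 4 libraries. How the replicates entered it, and whether bins were filtered or smoothed, is not given in the sources used here. The submitters' processing notes name mm10, Bowtie2, SAMtools and bedtools, without their roles. Such combined values cannot show which replicate or how many reads stand behind a bin.

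From these values, 51153 of 51427 bins (the 19 autosomes and X) were taken. RT of a gene was the mean over the bins that overlap it in GENCODE vM21, and 76 of 21755 protein-coding genes had no value. GC content came from the GRCm38.p6 assembly, whose coordinates are those of mm10. The noise SD was the scaled median absolute deviation of bins from the mean of their neighbors inside constant timing regions, scaled for 3 bins. Transitions allowed gaps of up to 200 kb. No test was run, since there is 1 value per bin.

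The genes, lists and rules were chosen with earlier results of these data known. Named genes were the 6 members, the 2 earliest and 2 latest of each list (all of lists of up to 8), the nearest, earliest and latest genes in each window, and the 2 closest profiles (over 5 Mb from the gene, 2 Mb from each other, and with at least 39 of 41 bins). Other genes are named with a remark, and 1 gene of a list is not reported here. The rules were checked on simulated profiles with an SD of 0.15, where 976 of 976 transitions were recovered within 50 kb and the SD as 0.151. These profiles had flat early and late levels joined by even ramps, with independent noise. They were not built with valleys near RT 0 or with flat steps inside a transition, so the check does not cover the profiles at *Myod1* and *Pax3*. Alternatives covered the bins, cuts, windows, states and measures. Python 3.11.15, numpy 2.4.6, scipy 1.17.1, pandas 2.3.3 and matplotlib 3.10.9 were used.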

Additional observations from a re-analysis of the deposited data

How the results depend on the processing

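No paired analysis was possible because each bin holds a single value with no replicate label, and no replicate could be left out for the same reason. Of 96 recomputed values 80 stayed within the noise SD of a bin, within 50 kb for a distance, within the counting interval for a share or within 1.5 times for a count. Some of these could not change, so this count is no measure of stability. *Myod1*, *Myf5*, *Myf6* and *Myog* each lie in 1 bin, which is also their start site bin, and *Myf5* and *Myf6* repeat the same values. Of the listed genes only *Dmd*, which is late, is on X, so early counts on autosomes alone were fixed. From 2 to 4 of the 6 genes were early, depending on the cut. With means over the gene body, 4 neighboring pairs differed by over 2 noise SDs with both noise estimates. In the start site bins, *Myog* and *Pax7*, and *Myod1* and *Pax3*, fell slightly short of that. Relative to the median of its chromosome, RT was 4.33 for *Myog*, 3.17 for *Pax7*, 0.66 for *Myod1* and -2.77 for *Myf5* and *Myf6*, and *Pax3* changed sign, to 0.93, as chromosome 1 has a median of -1.46, and so came above *Myod1*. In its start site bin *Pax3* had RT -0.22.

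The share of early bins was 100% around *Myod1* and 0% around *Myf5* and *Myf6* with 500 kb on each side, and with 2 Mb it was 69.1% around *Myod1* and 25.6% around *Pax3*. With states at RT 2 and -2, the nearest transition to *Pax7* was 3690 kb away. With the slope limit for constant timing set to 1.5 log2 per Mb, 0 of the 6 genes lay in such a region, with 5 there were 4 and with a running median 2, and with the cut at the median RT of all bins 8 of 8 mesoderm and endoderm regulators were early. Of the 10 closest profiles 3 were named again by Pearson's correlation and 1 with 500 kb on each side. Beyond the construction of each alternative the cause was not tested. What depth adds to these values cannot be read from the profile.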
